A study of Mus musculus with 4 samples.

Results

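The SLC25 family of mitochondrial carriers was followed in activated mouse B cells. Its members were taken as every gene whose name on the array starts with Slc25a, which gave 47 genes and 59 probes of 29870 genes and 39429 probes in all, and each gene was read from its brightest probe. Total RNA was measured on 4 Agilent 1-colour arrays of bead-purified spleen B cells. All 4 cultures were stimulated for 3 days, with anti-IgM at 10 µg/mL and the anti-CD40 clone FGK4.5 at 10 µg/mL, and none was left unstimulated. Cells came from Ackr4-deficient males (Ackr4ko, aged 73 and 71 days) and from C57BL/6 males (WT, aged 77 and 74 days). In each of 2 independent experiments with different donors, 1 Ackr4ko and 1 WT array were made, so n = 2 per genotype, and the labels do not say whether an array holds 1 mouse or a pool. Ackr4 encodes an atypical chemokine receptor that removes chemokines without G protein signalling, and how the Ackr4 allele was made is not given in the sources used here.

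SLC25 carriers are proteins of the inner mitochondrial membrane built from repeated units, and they move metabolites, nucleotides and cofactors between the mitochondrial matrix and the cytosol. They connect ATP export, citrate export for lipid synthesis, the malate-aspartate shuttle and the supply of cofactors and iron to the growth of a cell. B cells that divide after stimulation through the antigen receptor and CD40 enlarge their mitochondria and depend on these exchanges.

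The probes, the oligonucleotides that catch the labelled RNA, are 60 bases long. Sequences are shown for Slc25a1, which had the highest mean difference of the family, and for both probes of Slc25a33, which differed most between the experiments, so that the pieces of RNA behind those values can be seen. They are given 5′ to 3′ as deposited, with mm9 positions. The first is whole and crosses an exon junction, and of the others the first 30 bases are given.
Slc25a33, chr4:149123432-149126565, minus strand: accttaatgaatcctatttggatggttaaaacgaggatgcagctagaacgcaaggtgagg
Slc25a33, chr4:149118743-149118772, minus strand: agtgttcaaaactgaaacagtgaaggccat
Slc25a1, chr16:17925691-17925720, minus strand: tgtgtccagcctggccatggctgggtgtct

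The deposited files disagree on the genotype of each array. Each column of the authors' value table matched best the scanner file that carries the opposite genotype label, within its own experiment (r = 0.9984 to 0.9999 over 16207 probes), and both probes of Ackr4 itself, the targeted gene, were detected on 0 of 4 arrays, so its level does not check the labels. Groups are therefore called "labelled Ackr4ko" and "labelled WT" after the scanner files, and every direction turns round if the table is right. A level is the log2 signal relative to the array's 75th percentile, so 0 is that percentile, and levels are compared between arrays and not between probes. A probe counted as detected on an array when the scanner software put 50% or more of its usable spots well above background. The 75th percentile of the signal was 740 to 1277, and 42.2% to 54.9% of probes were detected on an array. Outlier spots were 1.79% and 2.12% of the total for the Ackr4ko label, and 1.85% and 6.24% for the WT label, so WT replicate 2 held the highest share. With 2 arrays a genotype, precision is low for every value, and in bulk samples fewer cells of a type and less RNA per cell cannot be told apart.

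Most carriers were measurable in these cells. The brightest probe was detected on all 4 arrays for 30 of 47 genes, on 3 arrays for 2 genes, on 2 arrays for 3 genes, on 1 array for 3 genes and on 0 arrays for 9 genes. The 35 genes detected on at least 2 arrays were tested, which is 74.5% of the carriers, beside 53.4% of all genes on the array. In experiments 1 and 2, 37 and 32 carriers were detected under the Ackr4ko label and 36 and 30 under the WT label, so both arrays of experiment 2 detected fewer. That order follows the share of all probes detected, 54.9% and 49.5% under the Ackr4ko label and 52.6% and 42.2% under the WT label.

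The 12 genes that were not tested are given here, some of them beside tested relatives. They include the ADP/ATP carrier Slc25a31, known from testis, beside Slc25a4 and Slc25a5, and the ATP-Mg/phosphate carriers Slc25a23 and Slc25a41 beside Slc25a24 and Slc25a25. They also include the ornithine carriers Slc25a15 and Slc25a2, the glutamate carrier Slc25a18 beside Slc25a22, the oxodicarboxylate carrier Slc25a21, the uncoupling-type Slc25a27, and Slc25a34, Slc25a43, Slc25a48 and Slc25a54, grouped here as without a settled substrate. Slc25a15 was detected on the array labelled WT replicate 1 only, and Slc25a23 and Slc25a27 on the array labelled Ackr4ko replicate 1 only, so 9 of the 12 were detected on 0 arrays.

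**Figure D1:**
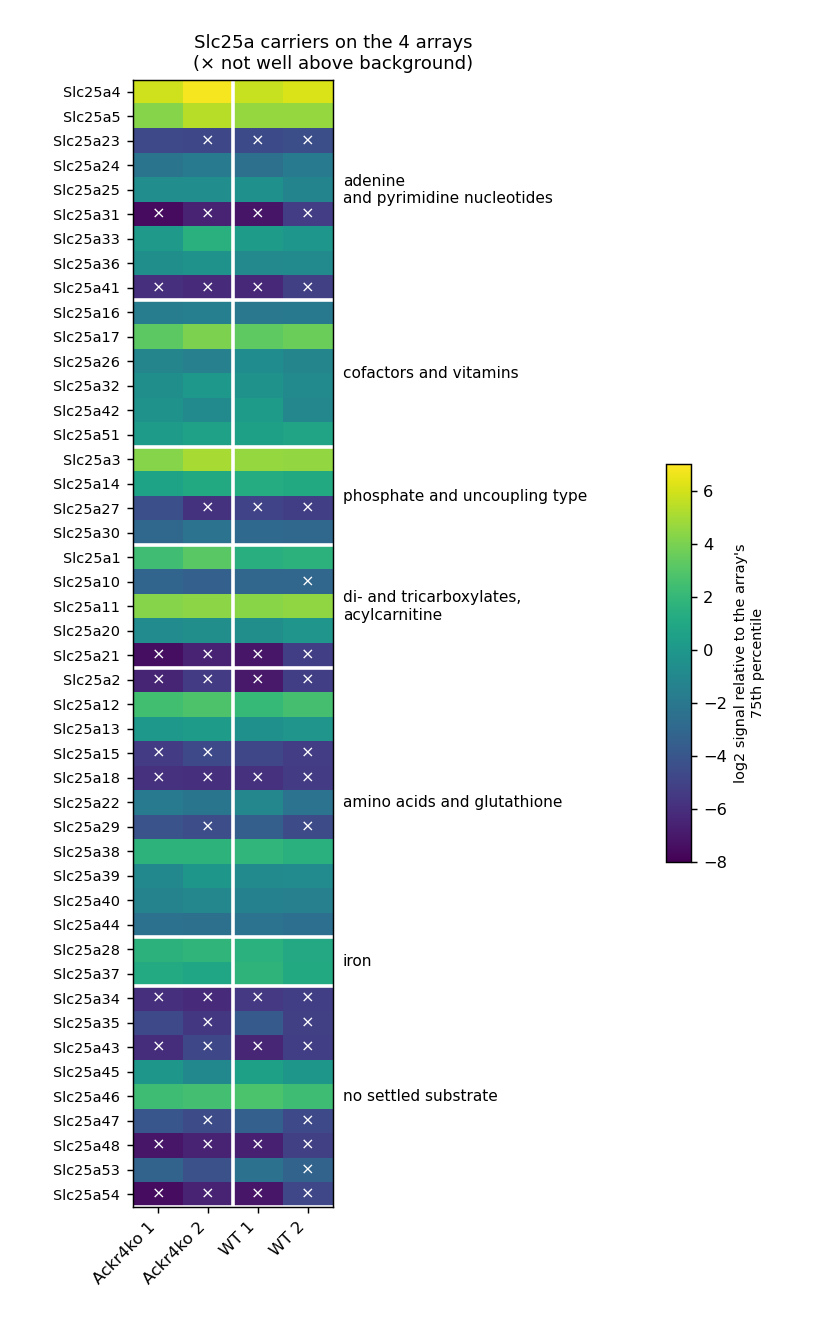
Level of the brightest probe of 46 carriers (rows, grouped by substrate) on the 4 arrays (columns, Ackr4ko left of WT), as log2 signal relative to the array's 75th percentile. Colours compare arrays within a row, crosses mark values not well above background, and 29 rows carry no cross.

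The comparison of genotypes asked whether carriers differed between the arrays labelled Ackr4ko and those labelled WT. In limma, a linear model with moderated variances fitted over all 15961 tested genes, 0 of 35 carriers had a Benjamini-Hochberg adjusted p under 0.05, beside 0.0125% of all genes. At an unadjusted p under 0.05 there was 1 carrier, beside 4.59% of all genes. With the experiment as a block, limma called 1 carrier, Slc25a1, beside 3.33% of all genes (2.04% with a positive difference, as for Slc25a1, and 1.3% with a negative one), and 5 carriers had an unadjusted p under 0.05, beside 10.6%. The block fit gives every gene the same variance. It called 0 genes of all after quantile normalization, where 3 carriers had an unadjusted p under 0.05. No carrier (0 of 35) reached 2-fold with 1 sign in both experiments, beside 1.79% of all genes.

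Carrier differences were small, and 17 of 35 carriers changed sign between the experiments (48.6%, beside 46.1% of all genes). The log2 difference, labelled Ackr4ko minus labelled WT, ranged from -0.92 to 1.20, with a median of 0.01 beside 0.08 for all tested genes. In experiment 1 the median was -0.18 (all genes -0.04) and 9 of 35 carriers were higher on the array labelled Ackr4ko, which is 25.7% beside 44.6% of all genes. In experiment 2 the median was 0.18 (all genes 0.23) and 24 carriers were higher, which is 68.6% beside 67.5% of all genes. Both experiments gave a higher value on the array labelled Ackr4ko for 8 carriers (22.9%, beside 33% of all genes) and a lower value for 10 (28.6%, beside 20.9%). A further 16 were lower in experiment 1 and higher in experiment 2 (45.7%, beside 34.5%), and 1, Slc25a24, went the other way (all genes 11.6%). These counts include Slc25a29, Slc25a35 and Slc25a47, which neither array of experiment 2 detected, so their sign there is not reliable. Over the 30 carriers detected on every array the medians were -0.16 and 0.33. Of these 30, 8 were higher in both experiments (26.7%) and 7 were lower in both (23.3%). A further 14 were lower in experiment 1 and higher in experiment 2 (46.7%), and 1 went the other way.

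**Figure D2:**
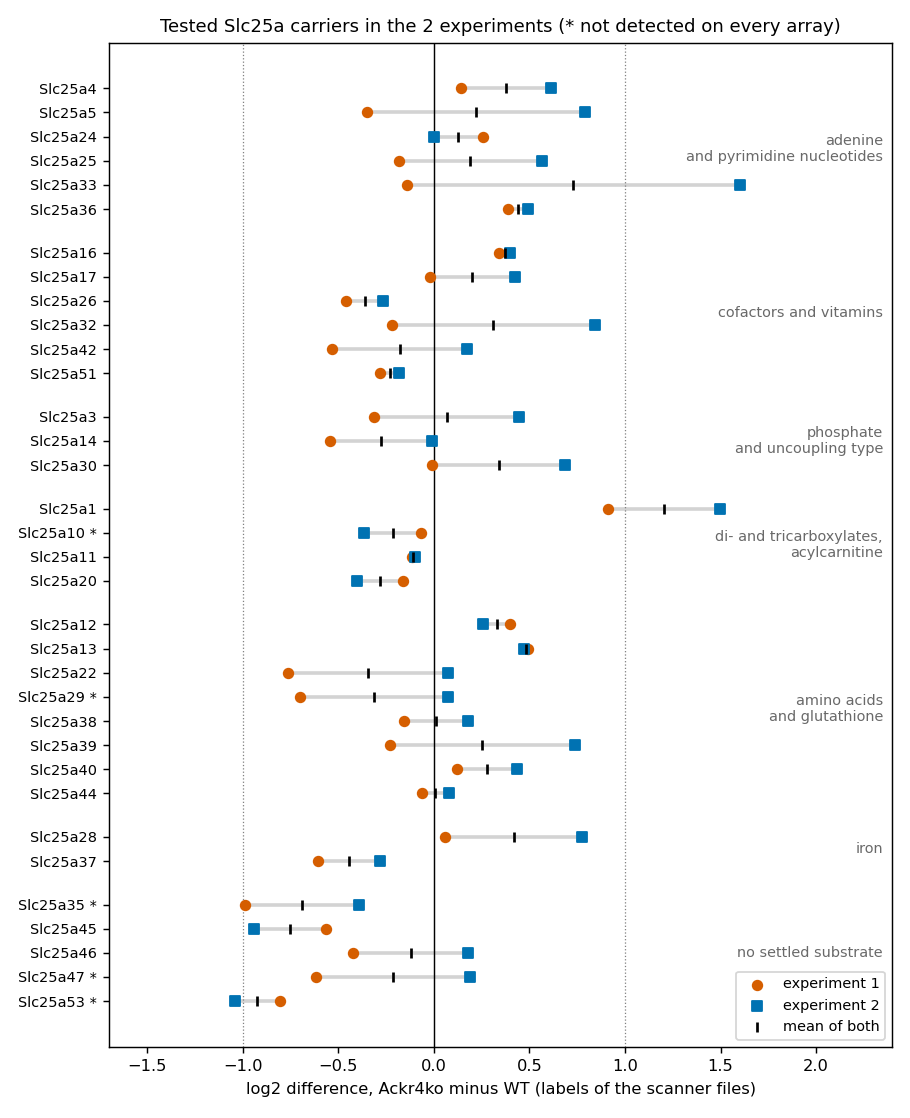
Log2 difference, Ackr4ko minus WT by the scanner files' labels, of 34 tested carriers in experiment 1 (circles) and experiment 2 (squares), with the mean of both as a bar; dotted lines mark 2-fold. Slc25a1 lies to the right in both experiments, at 0.91 and 1.50, and Slc25a53 and Slc25a45 lie to the left in both.

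The size of a carrier's difference carried over in part. Experiment 1 and experiment 2 differences had Pearson's r = 0.554 and Spearman's rho = 0.517 across the 35 carriers, and 0.339 and 0.255 across all 15961 tested genes, where genes do not count as replicates. Over the 30 carriers detected on every array the values were lower than over the 35, at r = 0.494 and rho = 0.463. Points share their array, and all points of an experiment share 1 pair of arrays. The median gap between the experiments was 0.47 on the log2 scale, and the widest was 1.74, for Slc25a33. A 2-fold difference was reached by 0 carriers in experiment 1 (all genes 4.64%) and by 3 in experiment 2 (all genes 10.1%), namely Slc25a1, Slc25a33 and Slc25a53, the last against an array labelled WT that did not detect it.

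**Figure D3:**
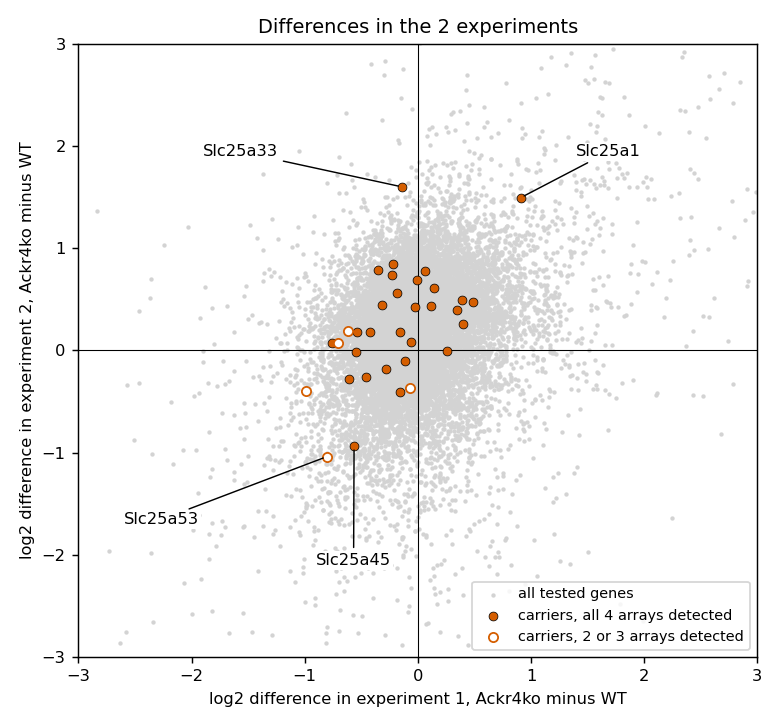
Log2 difference in experiment 1 (horizontal) against experiment 2 (vertical) for all tested genes (grey) and 34 carriers (orange; open where 2 or 3 arrays detected the probe); 71 genes lie beyond the axes at 3. Slc25a1 is at the upper right, Slc25a33 is high on the vertical axis only, and Slc25a53 and Slc25a45 are at the lower left.

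Carriers of di- and tricarboxylates feed the malate-aspartate shuttle and lipid synthesis. Slc25a1, the citrate carrier that exports citrate for cytosolic acetyl-CoA, had levels of 2.39 and 3.16 on the arrays labelled Ackr4ko, against 1.48 and 1.67 on those labelled WT. Both arrays labelled Ackr4ko lay above both labelled WT, the groups did not overlap, and the array labelled Ackr4ko of experiment 2 was the highest. The means were 2.77 ± 0.55 and 1.57 ± 0.13 (SD, n = 2 each), a log2 difference of 1.20 ± 0.37 (SE), or 2.30-fold. The difference was 0.91 in experiment 1 and 1.50 in experiment 2. Slc25a1 was not called without the block (limma adjusted p = 0.692, unadjusted p = 0.0107) and was called with it (limma adjusted p = 0.0203). That call was lost with the block after quantile normalization (difference 1.09, limma adjusted p = 0.687). Without the array labelled Ackr4ko replicate 2 the difference was 0.82. Its only probe lies at chr16:17925661-17925720 (mm9), and in the authors' value table the difference has the opposite sign, -1.09.

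The other carriers of this group were lower on the arrays labelled Ackr4ko in both experiments, with 0 called. Slc25a20, which brings acylcarnitine into the matrix for fatty acid oxidation, gave -0.28 (-0.16 and -0.40), and its groups overlapped. The dicarboxylate carrier Slc25a10 gave -0.22 ± 0.33 (SE) with groups that did not overlap, but the array labelled WT replicate 2 did not detect it. The oxoglutarate carrier Slc25a11, which returns oxoglutarate to the cytosol in the malate-aspartate shuttle, gave -0.11 (-0.11 and -0.10). Of the 4 tested genes of the group, 1 was called with the block and 0 without it.

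**Figure D4:**
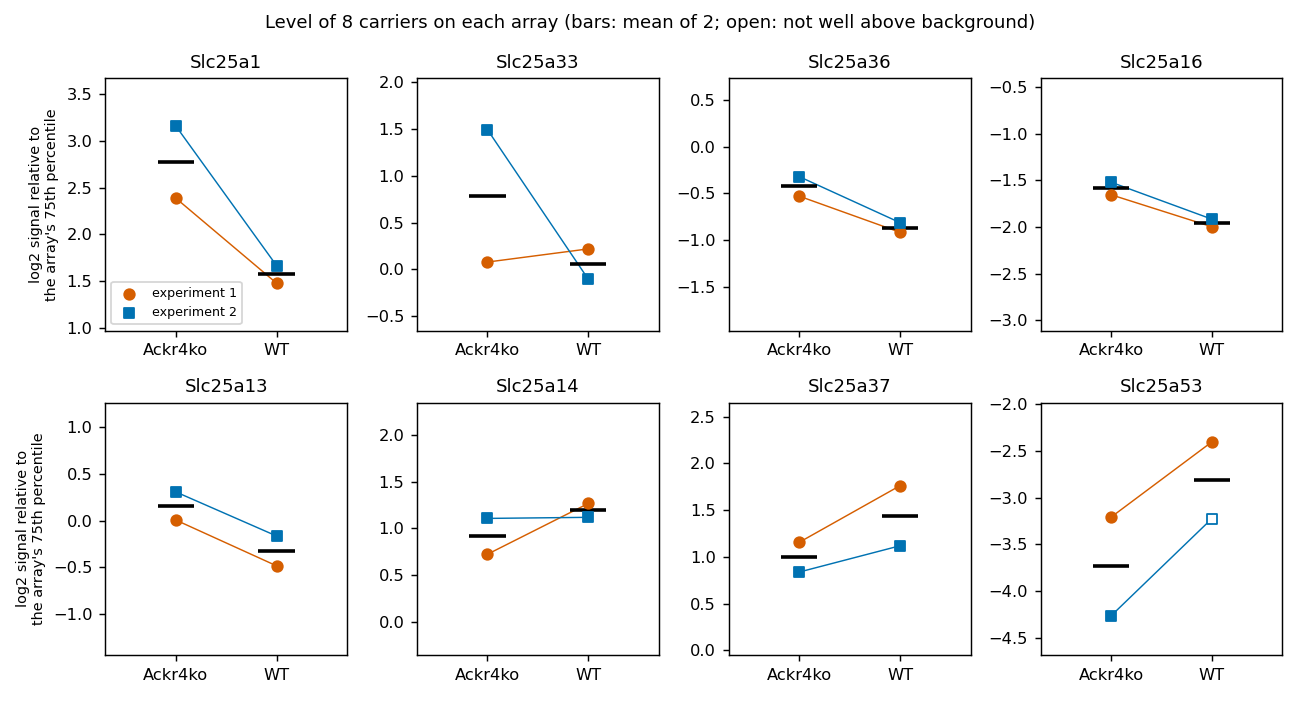
Level on each array of 8 carriers, as log2 signal relative to the array's 75th percentile, with Ackr4ko left of WT, lines joining the arrays of an experiment, bars at the mean of 2 arrays and an open symbol where the probe was not well above background. Each panel spans the same range of log2 units, and the gap is widest for Slc25a1 (1.20) and, in experiment 2 alone, for Slc25a33 (1.60).

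Nucleotide carriers move ATP, ADP and pyrimidine nucleotides. Slc25a33, a pyrimidine nucleotide carrier that supplies mitochondrial DNA and RNA synthesis, had levels of 0.08 and 1.49 on the arrays labelled Ackr4ko, against 0.22 and -0.11 on those labelled WT. The array labelled Ackr4ko of experiment 2 stood above the other 3, and the groups overlapped. The difference was -0.14 in experiment 1 and 1.60 in experiment 2, with a mean of 0.73 ± 0.47 (SE, limma adjusted p = 0.9996). Its junction probe, the first printed above, gave 0.16 and 1.76, so the probes differed in sign in experiment 1 and were alike in experiment 2.

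Slc25a36, the other pyrimidine nucleotide carrier, was more even. Its levels were -0.53 and -0.32 on the arrays labelled Ackr4ko, against -0.92 and -0.81 on those labelled WT, and the groups did not overlap. The difference was 0.44 ± 0.32 (SE, limma adjusted p = 0.9996), with 0.39 in experiment 1 and 0.49 in experiment 2. Groups that do not overlap with the higher values labelled Ackr4ko were seen for 6 of 35 carriers, beside 19% of all genes, and with the lower values labelled Ackr4ko for 2, beside 10%.

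The ADP/ATP carriers exchange matrix ATP for cytosolic ADP. Slc25a4 had levels of 5.89 and 6.78 on the arrays labelled Ackr4ko, against 5.75 and 6.16 on those labelled WT, a difference of 0.38 ± 0.40 (SE). Slc25a5 had levels of 4.28 and 5.39 on the arrays labelled Ackr4ko, against 4.63 and 4.60 on those labelled WT, a difference of 0.22 ± 0.42. For both genes the array labelled Ackr4ko replicate 2 was the highest of the 4, and the groups overlapped. The calcium-regulated ATP-Mg/phosphate carriers Slc25a24 (0.13) and Slc25a25 (0.19) differed by less than their standard errors of 0.38 and 0.37. All 6 tested genes of this group had a mean difference above 0, but 4 of them differed in sign between the experiments, and the group's median was 0.00 in experiment 1 and 0.59 in experiment 2.

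Carriers of cofactors supply mitochondrial enzymes. Slc25a16, tied to coenzyme A, had levels of -1.65 and -1.52 on the arrays labelled Ackr4ko, against -2.00 and -1.92 on those labelled WT. The groups did not overlap, and the difference of 0.37 ± 0.32 (SE, limma adjusted p = 0.9996) was 0.34 and 0.40 in experiments 1 and 2. The methyl donor carrier Slc25a26 gave -0.36 ± 0.35 (-0.46 and -0.26) and the NAD carrier Slc25a51 gave -0.23 ± 0.33 (-0.28 and -0.18), and for both the groups overlapped. Slc25a32, which brings folate into mitochondria, gave -0.22 and 0.84. The coenzyme A carrier Slc25a42 gave -0.53 and 0.18, and the peroxisomal cofactor carrier Slc25a17 gave -0.02 and 0.42. Of the 7 genes of this group, 0 were called, 1 was higher in both experiments, 2 were lower in both and 4 changed sign.

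The phosphate carrier and its uncoupling-type relatives had a median difference of 0.07. Within the experiments the group was not even, with medians of -0.32 in experiment 1 and 0.45 in experiment 2 (all genes -0.04 and 0.23). Slc25a3, which brings in the phosphate for ATP synthesis, had levels of 4.29 and 5.02 on the arrays labelled Ackr4ko, against 4.60 and 4.58 on those labelled WT, a difference of 0.07 ± 0.36 (SE). The array labelled Ackr4ko replicate 2 was again the highest, as for Slc25a4 and Slc25a5. Slc25a14 had levels of 0.72 and 1.11 on the arrays labelled Ackr4ko, against 1.27 and 1.12 on those labelled WT, a difference of -0.28 ± 0.33 that came from experiment 1 (-0.54) and not from experiment 2 (-0.01). Leaving out Ackr4ko replicate 1 gave -0.09, leaving out Ackr4ko replicate 2 gave -0.47, and leaving out WT replicate 1 gave -0.20. Slc25a30 gave -0.01 and 0.69 in experiments 1 and 2. Of the 3 tested genes, 0 were called.

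Carriers of amino acids and glutathione had 8 tested members, with 0 called, 3 higher in both experiments and 0 lower in both. Slc25a13, an aspartate-glutamate carrier of the malate-aspartate shuttle, had levels of 0.01 and 0.31 on the arrays labelled Ackr4ko, against -0.48 and -0.16 on those labelled WT. The groups did not overlap, and the experiments gave almost the same difference, 0.49 and 0.47, with a mean of 0.48 ± 0.33 (SE, limma adjusted p = 0.9996). Its paralogue Slc25a12 had levels of 2.45 and 2.81 on the arrays labelled Ackr4ko, against 2.05 and 2.56 on those labelled WT, a difference of 0.33 ± 0.35. The glutathione carriers Slc25a39 and Slc25a40 gave 0.25 (-0.23 and 0.74) and 0.28 (0.12 and 0.44).

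The remaining members of that group did not hold 1 direction. The glutamate carrier Slc25a22 gave -0.76 and 0.07 in experiments 1 and 2, and the basic amino acid carrier Slc25a29 gave -0.70 in experiment 1. Slc25a29 was detected on neither array of experiment 2, so its difference there was not measured. The glycine carrier Slc25a38, needed for haem synthesis, gave 0.01 ± 0.33 (SE), and the branched-chain amino acid carrier Slc25a44 gave 0.01 ± 0.32.

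The mitoferrins, which bring iron into the matrix for haem and iron-sulphur clusters, had mean differences of opposite sign, and neither was called. Slc25a37 (mitoferrin 1) had levels of 1.16 and 0.84 on the arrays labelled Ackr4ko, against 1.76 and 1.12 on those labelled WT, a difference of -0.44 ± 0.36 (SE, limma adjusted p = 0.9996). Both experiments gave a negative value, -0.61 and -0.28, but its groups overlapped. With 1 array left out the difference ranged from -0.77 without WT replicate 2 to -0.12 without WT replicate 1, and was -0.28 without Ackr4ko replicate 2. Its other probe, not detected on WT replicate 2, gave -1.03 and 0.33. Slc25a28 (mitoferrin 2) had levels of 1.65 and 1.81 on the arrays labelled Ackr4ko, against 1.59 and 1.04 on those labelled WT, a difference of 0.42 ± 0.35 with groups that did not overlap. That difference came mostly from experiment 2 (0.77), with 0.06 in experiment 1. Slc25a37 is best known from erythroid cells. Of 8 erythroid and platelet markers, Alas2, Hbb-b1, Pf4 and Ppbp were detected on 0 arrays, Hba-a1 on 1 array and Slc4a1 on 2 arrays. Car2, a carbonic anhydrase that is also found outside erythroid cells, was detected on all 4 arrays, with a difference of 1.54 that limma called with the block only (adjusted p = 0.651 without it and 0.000660 with it), and its part in the difference of Slc25a37 was not tested.

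Among carriers with no settled substrate, Slc25a45 was detected on all 4 arrays and Slc25a53 on 3, and both were lower on the array labelled Ackr4ko in each experiment. Slc25a53 had levels of -3.21 and -4.26 on the arrays labelled Ackr4ko, against -2.40 and -3.22 on those labelled WT, a difference of -0.92 ± 0.45 (SE, limma adjusted p = 0.9996, and 0.154 with the block). The lower value of each experiment was on the array labelled Ackr4ko, the groups overlapped, and the array labelled WT replicate 2 was not well above background. Leaving out Ackr4ko replicate 1 gave -1.45, leaving out Ackr4ko replicate 2 gave -0.40, and leaving out WT replicate 1 gave -0.51. Slc25a45 had levels of -0.03 and -0.99 on the arrays labelled Ackr4ko, against 0.53 and -0.05 on those labelled WT, a difference of -0.75 ± 0.42 (limma adjusted p = 0.9996, and 0.365 with the block). Slc25a35 and Slc25a47 were detected on the arrays of experiment 1 only, where they gave -0.99 and -0.62, and their difference in experiment 2 was not measured. Slc25a46, an outer membrane relative tied to mitochondrial shape, gave -0.42 and 0.18. Of the 5 tested genes, 0 were called.

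Where a carrier has more than 1 tested probe, the probes gave a measure of error beyond the arrays. Both tested probes of 9 carriers had mean differences over the experiments that lay 0.08 to 0.37 log2 units apart, with a median gap of 0.17. Within an experiment some probes lay further apart. In experiment 2 the brightest and the other probe gave -0.26 and 0.26 for Slc25a26, and -0.18 and 0.34 for Slc25a51. In 5 of the 9 both probes were detected on all 4 arrays, and there they had the same sign in 4 carriers in experiment 1 and in 3 in experiment 2. Among these 5, the mean difference changed sign between probes for Slc25a25 (0.19 and -0.19), Slc25a3 (0.07 and -0.07) and Slc25a51 (-0.23 and 0.02). Slc25a5 kept its sign in both experiments, with -0.35 and 0.79 for the brightest probe and -0.22 and 0.97 for the other, which the array labelled WT replicate 2 did not detect. Slc25a1, Slc25a13, Slc25a16 and Slc25a36 have 1 probe each, so no other probe checks them.

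**Figure D5:**
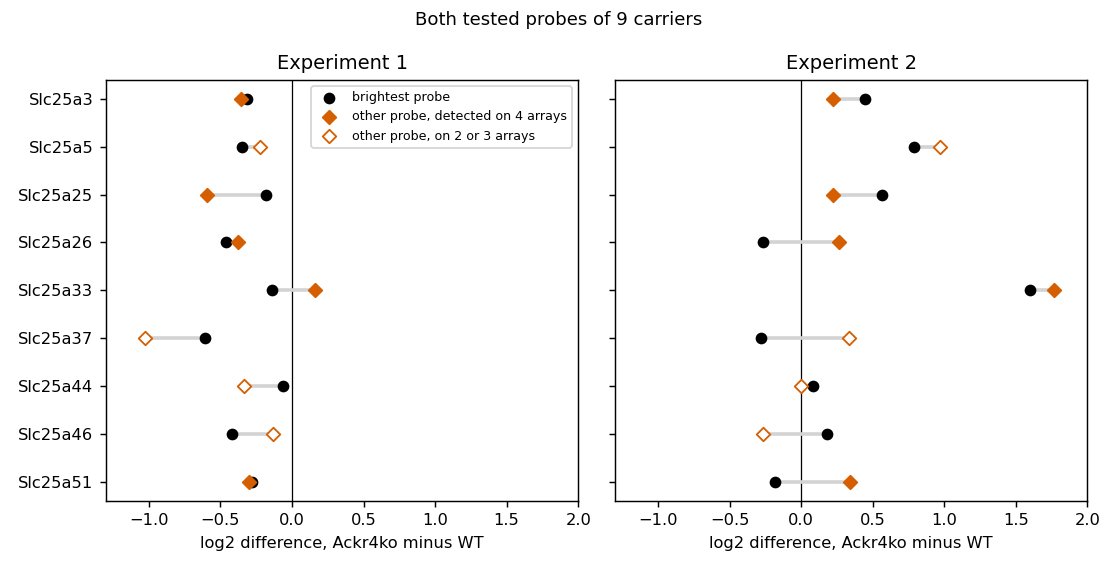
Log2 difference, Ackr4ko minus WT, of the brightest probe (circles) and the other tested probe (diamonds, open where 2 or 3 arrays detected it) of 9 carriers in experiment 1 (left) and experiment 2 (right). The probes of Slc25a33 lie together at 1.60 and 1.76 in experiment 2, and those of Slc25a26 and Slc25a51, detected on all 4 arrays, fall on either side of 0 there.

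Levels also differed between the experiments within a label. On the arrays labelled Ackr4ko, 22 of 35 carriers were higher in experiment 2 than in experiment 1 (median 0.19, beside 0.13 for all genes, of which 58.6% were higher), and on those labelled WT 12 were (median -0.15, beside -0.08, with 42.5% of all genes higher). Ackr4 lies on chromosome 9, which also holds Slc25a36 (chr9:96978166-96978225), Slc25a20 (chr9:108585399-108585458) and Slc25a38 (chr9:120033376-120033435, all mm9). Their differences were 0.44, -0.28 and 0.01, and a part of their place on chromosome 9 in these was not tested.

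Genes that work beside the carriers were read from the same fit. Of 57 tested genes in lists of other carrier names, import machinery, further mitochondrial transporters and partner enzymes, limma called 0 without the block and 2 with it, beside 3.33% of all genes. Their median difference, with these 2 included, was 0.19, beside 0.08 for all genes. The 2 were partner enzymes of glutamate and proline metabolism, and both passed the filter on dim probes only through the arrays labelled Ackr4ko, so they had to differ and their calls support nothing. Gls2, a glutaminase, had levels of -3.19 and -2.52 on the arrays labelled Ackr4ko, against -5.67 and -4.90 on those labelled WT, where neither array detected it, which makes it at least 3.86-fold brighter (limma adjusted p = 0.197). Pycr1, which makes proline in mitochondria, had levels of -3.57 and -2.48 on the arrays labelled Ackr4ko, against -5.26 and -5.10 on those labelled WT, where neither array detected it, a brightness at least 3.09-fold higher (limma adjusted p = 0.237). In such a bound, the dim group's value on each array is the higher of the probe's own and the lowest signal well above background.

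Acly, which cleaves the exported citrate, gave 0.13 ± 0.34 (SE), with 0.10 and 0.15 in experiments 1 and 2. The malate-aspartate enzymes Got2 and Got1 gave 0.43 and 0.52, while Mdh1 and Mdh2 gave 0.14 and 0.16 and were lower in experiment 1. Over all 28 tested partner enzymes, 16 were higher and 1 was lower on the arrays labelled Ackr4ko in both experiments (all genes 33% and 20.9%). The median was 0.15 in experiment 1 and 0.55 in experiment 2 (all genes -0.04 and 0.23). The 16 and both medians include Gls2 and Pycr1, whose direction was fixed by the filter.

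Related carriers and import genes had 0 members called in either fit. The uncoupling proteins Ucp3 and Ucp2, family members under another name, gave -0.56 ± 0.34 and -0.53 ± 0.36 (SE), each lower on the array labelled Ackr4ko in both experiments. Of the other 2 tested genes of that list, Mtch1 gave -0.46 and Mtch2 gave 0.66. Tomm20 and Tomm70a, outer membrane receptors that pass carrier precursors inward, gave 0.72 (0.18 and 1.26) and 0.41 (0.08 and 0.74), the largest of the import list. Of its 8 tested genes, 3 were higher and 1 was lower in both experiments (all genes 33% and 20.9%). The median of the list was -0.07 in experiment 1 and 0.54 in experiment 2 (all genes -0.04 and 0.23). Among further transporters, the sideroflexins Sfxn1, Sfxn2, Sfxn3, Sfxn4 and Sfxn5 gave 0.14, -0.85, -0.12, -0.30 and -0.76, and Sfxn1 and Sfxn3 changed sign between the experiments.

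The label of the cells was checked against markers. All 9 B cell markers were detected on all 4 arrays, with a summed level of 8.80 to 8.87 on the arrays labelled Ackr4ko and 9.03 to 9.21 on those labelled WT. Among 7 dendritic markers, Flt3 and Zbtb46 were detected on all 4 arrays and were higher on the array labelled Ackr4ko in both experiments, by 1.07 and 1.00 on average. Batf3 and Fscn1 were detected on the arrays labelled Ackr4ko only, so their direction was fixed by the filter. Flt3 had levels of 3.50 and 3.09 on the arrays labelled Ackr4ko, against 2.20 and 2.25 on those labelled WT. Zbtb46 had levels of -2.01 and -1.22 on the arrays labelled Ackr4ko, against -2.68 and -2.54 on those labelled WT. Itgax, Clec9a and Xcr1 were detected on 0 arrays. T cell markers had a summed level of 1.71 to 2.23 on the arrays labelled Ackr4ko and 1.81 to 2.17 on those labelled WT. Cd3d, Cd3e, Cd3g and Cd4 were detected on all 4 arrays, and Cd8a and Cd8b1 on 0 arrays. Macrophage and monocyte markers had 5.26 to 5.58 and 5.83 to 5.93. Adgre1, Cd68, Csf1r, Itgam and Mpeg1 were detected on all 4 arrays, and Lyz2 on 0 arrays. Of the NK, neutrophil and stromal markers, Nkg7, Prf1, Elane, Ly6g and Pecam1 were detected on all 4 arrays and Madcam1 on 2 arrays. Ncr1, Klrb1c, Mpo, S100a8, S100a9 and Col1a1 were detected on 0 arrays. The part of other cells in the difference of Slc25a1 was not tested.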

How the data were processed

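The deposited scanner files give spot intensity. The submitters' processing notes name Agilent Feature Extraction 10.7.3.1, and the values used are already background-subtracted, with probe positions on mm9 per the file headers. The authors' deposited value table gives normalized intensity, and how it was made is not given in the sources used here. The file headers give 1 slide and 1 scan for all 4 arrays, which leaves no slide or scan batch to test. Control and outlier spots were dropped, log2 of the processed signal minus the array's 75th percentile was averaged over 4 spots, and a gene was tested if at least 50% of the spots of a probe were well above background on at least 2 arrays, with its brightest probe. Probe names came from the array and RefSeq. Genotypes were tested in R 4.3.3 with limma 3.58.1 (two-sided, Benjamini-Hochberg over 15961 genes), checked on simulated arrays. Replicate numbers mark the 2 experiments in the series description, which is where the pairing comes from; the deviations of the 2 arrays that share a number had r = 0.421 over genes. Alternatives covered normalization, background correction, the filter on dim probes, the probe of a gene, the block, the value table and each array left out. Carriers named with full statistics were those called in either fit and, per substrate group, the largest difference with the same sign in both experiments. Other carriers given with all values, such as Slc25a33 and Slc25a45, were chosen after their values were seen. Members and lists were chosen with earlier results of these data known. No label says how many animals an array holds, so p-values measure the spread between these arrays. Values of 1 carrier and 1 marker are not reported here, though both stay in the fits and counts.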

Additional observations from a re-analysis of the deposited data

How the results depend on the processing

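The count of called carriers was 0 under 12 of 15 alternatives, those that left out 1 array included (0 to 0), and 1, always Slc25a1, with the replicate block (pairing by experiment), with the replicate block restricted to probes detected on every array (limma adjusted p = 0.0111) and with the replicate block after normexp (limma adjusted p = 0.00203). The last 2 were chosen after seeing the data. The block changed no other carrier's call. Counts over all genes were 2 without a block, 532 with it, 188 with median normalization, 19 with normexp and 122 without WT replicate 2. The median over tested carriers was 0.01, and -0.11 to 0.17 with 1 array left out. Median normalization moved the median of all genes by 0.19 and dropping the filter by -0.34, and the carriers' median became 0.20 and -0.11. Of 35 carriers, 31 kept the sign of their difference after quantile normalization, 27 without Ackr4ko replicate 2 and 27 without WT replicate 1. With the authors' value table, whose columns match the other genotype's arrays, Slc25a1 gave -1.09, Slc25a13 -0.41, Slc25a14 0.39, Slc25a16 -0.31, Slc25a36 -0.39, Slc25a37 0.51 and Slc25a53 0.97. Dim probes limit the rest: the lowest signal well above background was -4.04 on WT replicate 2, against -6.06 to -5.28 on the other arrays.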
